A study of Caenorhabditis elegans with 18 samples.

Results

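The comparison described here takes the 6 libraries of an 18-library mRNA-Seq study in which both groups lack functional *fbxl-5* and only 1 of them also carries a mutation in *rict-1*. The 3 libraries of *rict-1(mg360); fbxl-5(rhd43)* double mutants (strain DLS491) were set against the 3 libraries of *fbxl-5(rhd43)* single mutants (strain DLS316). Genes entered if their mean normalized count over the 18 libraries was at least 10, which kept 13472 of the 24998 genes in the deposited table. Every animal of both groups carried *rhd43*, a premature stop codon in the *fbxl-5* coding sequence. *mg360* replaces a residue of RICT-1 rather than deleting the gene and may leave some activity of the protein, so that the comparison measures reduced RICT-1 function. All animals were whole hermaphrodites on day 1 of adulthood, after about 72 h of growth at 20 °C. Wild-type N2 and *rict-1(mg360)* (strain DLS490) libraries, 3 of each, show what the same *rict-1* mutation did when *fbxl-5* was intact. Together with the remaining 6 libraries, 3 of *lin-29(n333)* and 3 of *lin-29(n333); fbxl-5(rhd43)*, they also entered the filter on low counts and the estimate of spread behind every test, and the *lin-29* genotypes are not otherwise used here.

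RICT-1 is the *C. elegans* Rictor, the subunit that defines mTOR complex 2 (mTORC2), a kinase complex that passes nutrient and developmental signals to kinases such as SGK-1. In the adult intestine, mTORC2 and SGK-1 support production of the vitellogenins, the yolk lipoproteins that carry maternal lipid to oocytes, and they restrain body fat. FBXL-5 is an F-box protein, the part of an SCF ubiquitin ligase that binds the proteins to be degraded. In whole-animal RNA, fewer cells of a tissue and less RNA per cell cannot be told apart, so every level below is a level per animal population.

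Reads assigned to genes numbered between 23728891 and 29733059 in the 6 libraries. Values are normalized counts, the reads of a library divided by its DESeq2 size factor. Tests are from limma on log2(normalized count + 1), fitted over all 18 libraries with a mean for each genotype, and adjusted p-values are Benjamini-Hochberg values over the 13472 genes. A gene was called when its adjusted p was under 0.01. *fbxl-5* replicate 3 stood apart in that ribosomal RNA made up 29.97% of its reads, against 0.255% to 1.554% in the other 5 compared libraries. Without it 838 genes were called in place of the 1343 described next, and 100 of the 134 called genes chosen for naming kept their call, all in the same direction. The study describes the replicates of a condition as independent biological preparations.

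*rict-1* loss still changed many transcripts in animals that lacked *fbxl-5*. Of the 13472 genes, 1343 were called (9.97%), with 934 higher (6.93%) and 409 lower (3.04%) in the double mutants. The rises were the larger changes. Their median log2 fold change was 1.14, and 540 of them exceeded 2-fold and 68 exceeded 8-fold. Among the genes that fell the median was -0.52, with 82 past 2-fold and 6 past 8-fold. The median over all genes tested was 0.02. The number of calls rested on all 6 libraries. It was 823, 733 and 838 without *fbxl-5* replicates 1, 2 and 3, and 827, 988 and 729 without *rict-1; fbxl-5* replicates 1, 2 and 3. Regardless of any test, the 3 double mutant libraries all lay above the 3 *fbxl-5* libraries for 3548 genes (26.3%) and all below them for 3138 genes (23.3%), which is the background for the statements on overlap below.

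The 2 mutated genes themselves were read first. *rict-1* (chromosome II, 13098239 to 13116810, minus strand, WBcel235 annotation) had normalized counts of 2603, 2322 and 2421 in the *fbxl-5* libraries and 2941, 2565 and 2678 in the double mutants. The groups overlapped, and the difference of 0.16 on the log2 scale was not called (standard error 0.12, adjusted p = 0.397 from limma), so the transcript level gave no check of a missense allele. *fbxl-5* (chromosome V, 7742909 to 7751369, plus strand) was present at 139, 138 and 141 in the *fbxl-5* libraries and at 214, 208 and 226 in the double mutants. All 3 double mutant libraries were higher, but the log2 fold change of 0.63 (standard error 0.25) had an adjusted p of 0.0943 in limma. In a fit of these 6 libraries alone the same difference had an adjusted p of 0.00057. Both groups carry the nonsense allele.

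Some genes that act with or after mTORC2 rose, while those of its own subunits were not called. *pqm-1*, which encodes a zinc finger transcription factor that acts after mTORC2 and SGK-1 in yolk production, went from 365, 328 and 312 to 1148, 791 and 907. This 2.83-fold rise (log2 1.49, standard error 0.17, adjusted p = 1.76e-05 from limma) left a wide gap between the groups. *sgk-1*, encoding the kinase itself, went from 401, 430 and 441 to 694, 656 and 575, with a log2 fold change of 0.59 (adjusted p = 0.00109 from limma). Of the 10 genes listed for mTORC2 and the SGK-1 branch, 4 were higher (*pqm-1*, *sgk-1*, *pkc-2* and *akt-2*) and none was lower. The share called was 40.0%, against 9.97% of all genes tested, and the median over the 10 genes was 0.12 on the log2 scale. The subunit genes *let-363*, *mlst-8* and *sinh-1* had values of 0.01, -0.12 and -0.08, and *akt-1* and *skn-1*, which also act after the complex, had values of -0.13 and 0.09. Among 15 genes of mTORC1 signalling and autophagy, *hlh-30*, the worm TFEB, rose by 0.65 and *lgg-2*, an autophagy protein of the LC3 family, by 0.38. The other 13 were not called, and the share called, 13.3%, was close to the 9.97% of all genes tested.

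Vitellogenin transcripts split into a group that fell and a group that did not. *vit-3* (chromosome X, 3567355 to 3572549) had normalized counts of 52021, 59508 and 65400.4 in *fbxl-5* mutants and 2427, 3322 and 2049 in the double mutants. *vit-1* went from 92085, 102883 and 119160.0 to 11783, 12963 and 9919. *vit-4* went from 45452, 52516 and 56094 to 11853, 14279.9 and 10096. No library of one group reached the other group for any of these 3 genes. The falls were 22.7-fold for *vit-3* (log2 -4.53, standard error 0.28, adjusted p = 7.78e-08 from limma), 9.06-fold for *vit-1* (log2 -3.18, adjusted p = 1.75e-07) and 4.25-fold for *vit-4* (log2 -2.10, adjusted p = 6.26e-05). The other 3 vitellogenins were not called, although the libraries of the 2 groups did not overlap for *vit-2* and *vit-5*. *vit-2* had a log2 fold change of 0.23 (adjusted p = 0.292), *vit-5* of -0.19 (adjusted p = 0.538) and *vit-6* of 0.12 (adjusted p = 0.653). *vit-3* and *vit-4* are close copies of each other and of *vit-5*, so short reads may be shared among the 3 and their separate values are uncertain.

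**Figure D1:**
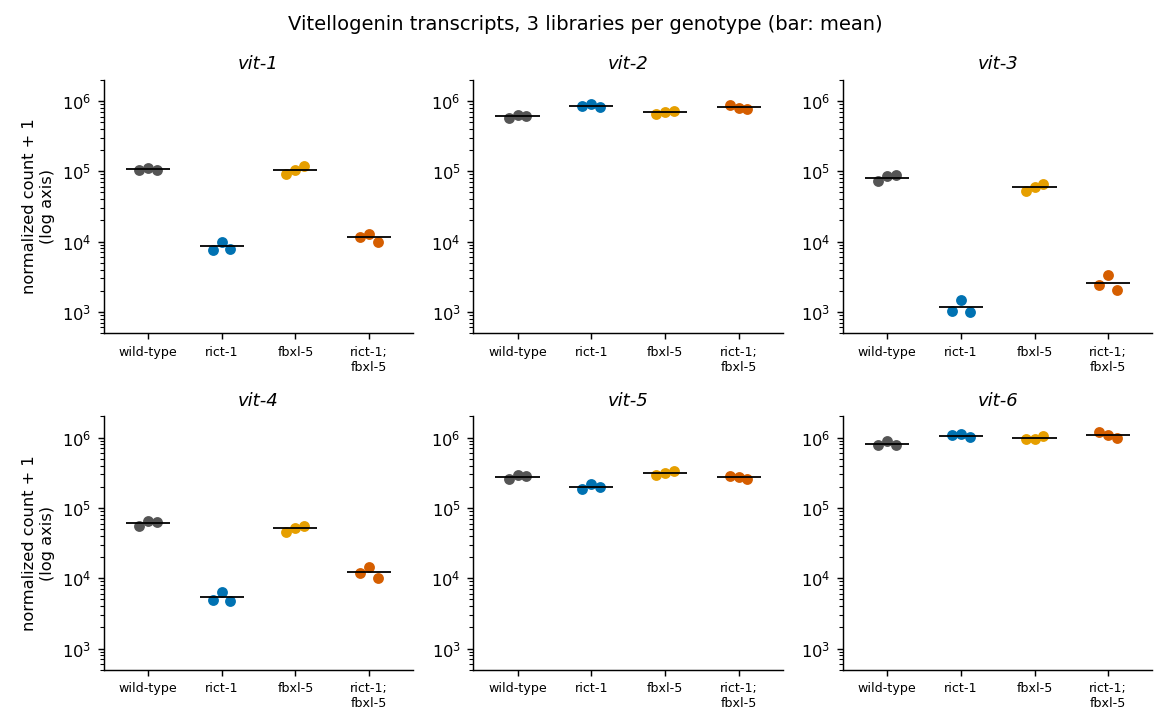
Normalized count plus 1 of the 6 vitellogenin genes on a shared log axis, with 1 point per library, 3 libraries per genotype and a bar at the mean. The double mutants lie below the *fbxl-5* mutants for *vit-1*, *vit-3* and *vit-4*, by 9.06-fold, 22.7-fold and 4.25-fold, while *vit-2*, *vit-5* and *vit-6* were not called.

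The total yolk transcript pool did not separate the groups. The summed normalized count of the 6 genes was 2108073, 2183296 and 2339072 in *fbxl-5* mutants and 2370362, 2180564 and 2021684 in the double mutants, which overlapped. What shifted was its make-up. *vit-1*, *vit-3* and *vit-4* together contributed 8.99%, 9.84% and 10.3% of that sum in the *fbxl-5* libraries and 1.1%, 1.4% and 1.09% in the double mutants. In *rict-1* single mutants they contributed 0.638%, 0.794% and 0.672%, against 12.5% to 13.2% in wild-type. The log2 changes caused by *rict-1* with *fbxl-5* intact were -6.14, -3.65 and -3.52 for *vit-3*, *vit-1* and *vit-4*. The difference between the 2 backgrounds was 1.61 for *vit-3* (adjusted p = 0.0326 from limma), 1.43 for *vit-4* (0.0488) and 0.47 for *vit-1* (0.495), so none was called at 1% FDR. Of 18 listed genes for yolk gene regulation and yolk uptake, 4 were higher (*pqm-1*, *ceh-60*, *sgk-1* and *unc-62*), none was lower, and the median log2 fold change was 0.25. The share called was 22.2%, against 9.97% of all genes tested. Without *fbxl-5* replicate 1, 2 or 3 or double mutant replicate 1 or 3, 2 of the 18 were higher. The yolk receptor gene *rme-2* had a value of -0.20 (adjusted p = 0.372).

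Of the 10 genes that rose most, 9 had counts under 39 in every *fbxl-5* library, and *hrg-7* was higher. *F56C3.9* was at 8.03, 10.6 and 1.14 in *fbxl-5* mutants and at 1096, 847 and 935 in the double mutants, a log2 fold change of 7.30 (adjusted p = 4.58e-06 from limma). *ugt-18*, a UDP-glucuronosyltransferase gene of the family that conjugates lipophilic compounds, went from 25.7, 16.4 and 14.9 to 1429, 1160.1 and 1359 (log2 6.08, adjusted p = 1.61e-05). *ech-9*, which encodes an enoyl-CoA hydratase of fatty acid breakdown, went from 38.6, 26 and 14.9 to 1138, 1073 and 1304 (log2 5.51, adjusted p = 3.96e-06). In each the highest *fbxl-5* library was far below the lowest double mutant library. *nspg-7.2*, *Y68A4A.13*, *F15B9.6* and *Y47H9C.1* rose by 6.72, 6.65, 5.03 and 4.69, and the remaining 3 of the 10 were *hrg* genes described next. The size of the rise is uncertain for genes with so few counts in *fbxl-5* mutants. Of the genes named here, *ech-9*, *hrg-3*, *hrg-7*, *vit-2*, *vit-3*, *vit-4*, *rict-1*, *ceh-60*, *pho-13*, *acs-7*, *lipl-4*, *dhs-28*, *maoc-1*, *far-3*, *sams-3*, *lys-8*, *cyp-35B1*, *cyp-37B1*, *skr-5* and *unc-64* overlap another annotated gene, and the library kit does not mark strand, so reads from the partner cannot be told apart.

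**Figure D2:**
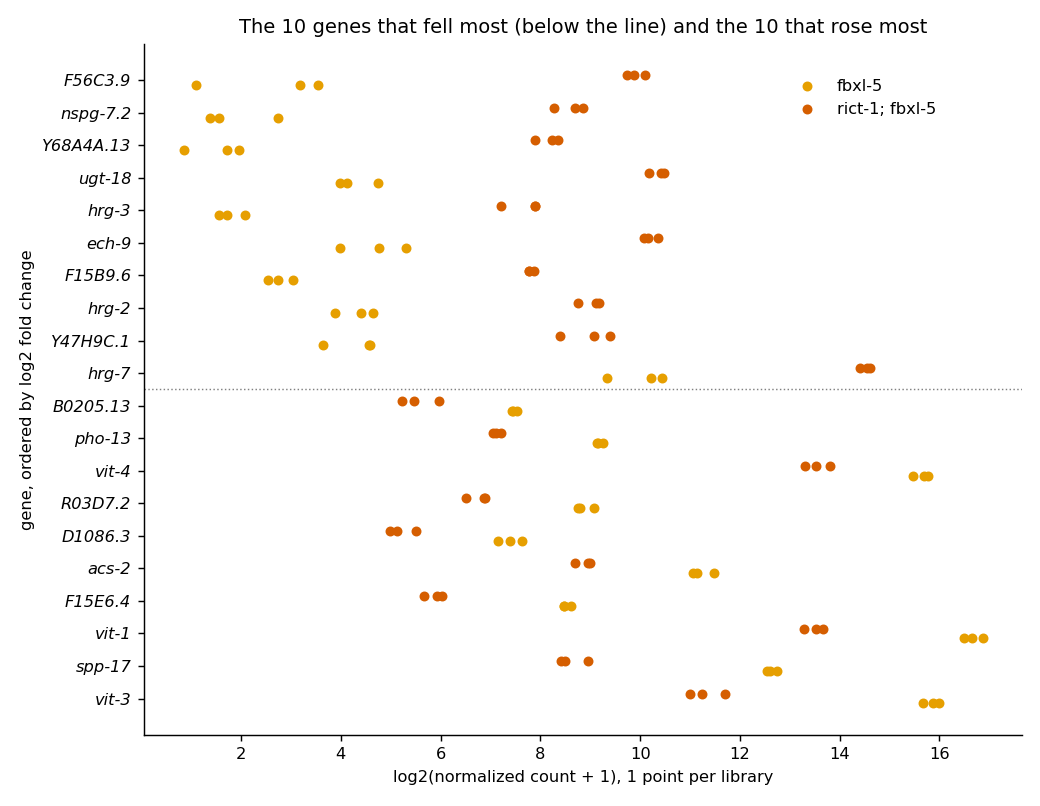
log2(normalized count + 1) of the 10 genes that fell most and the 10 that rose most among called genes with a mean of at least 100, with 1 point per library for *fbxl-5* and *rict-1; fbxl-5*. The 2 colours do not overlap in any of the 20 genes, and log2 fold changes run from -4.53 for *vit-3* to 7.30 for *F56C3.9*.

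Several of the largest rises were in heme-responsive genes. *C. elegans* cannot make heme and obtains it from its bacterial food, and the *hrg* genes were named for their response to heme. *hrg-7*, which encodes a secreted aspartic protease-like protein that signals heme status between tissues, went from 647, 1185 and 1394 to 25047, 21745 and 24080.1. *hrg-1*, encoding a heme importer of intestinal lysosomes, went from 104, 143 and 153 to 2107, 1779.7 and 1693. *hrg-3*, encoding a secreted heme chaperone that mothers pass to embryos, went from 3.21, 1.93 and 2.29 to 235.3, 148 and 236. *hrg-2* went from 13.7, 20.2 and 24 to 555, 429 and 578. The groups were far apart for all 4 genes, with log2 fold changes of 4.53 (adjusted p = 0.00576), 3.80 (0.000382), 5.88 (0.000383) and 4.71 (0.00381) in limma. The calls of *hrg-7* and *hrg-2* were close to the threshold, with standard errors of 0.97 and 0.99 from a spread estimated over all 6 genotypes. Without a single library, the adjusted p of *hrg-7* was between 0.0147 and 0.0265 and that of *hrg-2* between 0.0109 and 0.0188.

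A list of 17 heme and metal genes, drawn up after these values had been seen, leaves out the metallothionein gene *mtl-2*, which fell. The list had 14 members tested, of which 9 were higher and none lower (64.3% called, against 9.97% of all genes tested). The median log2 fold change was 1.64 in the double mutants against *fbxl-5*, beside 0.02 over all genes tested, and 1.66 in *rict-1* against wild-type. Besides the 4 *hrg* genes, the ferritin genes *ftn-1* and *ftn-2* rose by 2.19 and 1.15, the heme exporter gene *mrp-5* by 1.2, and the divalent metal transporter genes *smf-3* and *smf-1* by 1.2 and 0.72. The intestinal heme importer gene *hrg-4* had a value of 2.62 and an adjusted p of 0.0266. Without any 1 of the 6 libraries, 7 of the 14 were called higher.

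The genes that fell most, apart from the yolk genes, included *spp-17* and *acs-2*. *spp-17*, encoding a saposin-like protein of a family that includes antimicrobial peptides, went from 5962, 6176 and 6869.6 to 362, 495 and 339, a 15.9-fold fall (log2 -4.0, adjusted p = 7.55e-08 from limma). *acs-2*, encoding an acyl-CoA synthetase that feeds mitochondrial fatty acid oxidation, went from 2139, 2249 and 2859 to 493, 411 and 512 (log2 -2.35, adjusted p = 5.92e-06). Both genes also fell when *fbxl-5* was intact, with log2 fold changes of -3.63 and -2.15. Those of *F15E6.4*, *D1086.3*, *R03D7.2* and *pho-13* in the double mutants were -2.65, -2.18, -2.11 and -2.06. *B0205.13* fell from 174, 171 and 183 to 36.3, 61.3 and 43, while its log2 change in *rict-1* against wild-type was -0.18 (adjusted p = 0.604). The metallothionein gene *mtl-2*, which binds heavy metals, went from 64.3, 65.5 and 113 to 0, 4.84 and 0.844 (log2 -5.16, adjusted p = 5.55e-06).

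Genes of lipid breakdown moved in both directions. Among the lipases and lipid droplet genes, 3 of 16 tested were higher and none lower (18.8%, against 9.97% of all genes tested). All 3 encode lysosomal-type acid lipases. *lipl-1* went from 15.3, 12.5 and 6.86 to 116, 151 and 182, *lipl-2* from 8.03, 18.3 and 24 to 71, 78.3 and 138, and *lipl-4* from 9.64, 4.82 and 8.0 to 143, 116 and 98.8. Their log2 fold changes were 3.63, 2.50 and 3.85, and no library overlapped. *hlh-30*, whose product is known to activate such lipases in fasted worms, rose by the 0.65 given above. A part of *hlh-30* in the lipase rises was not tested. In the list of fatty acid oxidation and activation, 10 of 59 were higher and 4 lower (23.7%), with a median of 0.01. Without any 1 library, 8 were higher and 2 lower. *acs-7* and *acs-3* rose by 1.47 and 1.49, next to the fall of *acs-2*. Of 11 genes for peroxisomal ascaroside synthesis, the pathway that shortens the side chains of worm pheromones, 5 were higher and none lower (45.5%). *dhs-28*, encoding its dehydrogenase, went from 1738, 1917 and 1967 to 3600.4, 3704 and 3809 (log2 0.98, adjusted p = 1.99e-05 from limma). *acox-1.5*, *acox-3* and *maoc-1* rose by 1.36, 0.87 and 0.81. This count was 3 without *fbxl-5* replicate 1 or 2 or double mutant replicate 2 or 3.

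Fatty acid desaturation and lipid binding genes included changes in both directions, at 14.3% and 23.5% of the listed genes against 9.97% of all genes tested. *fat-7*, one of the stearoyl-CoA desaturases, went from 1153, 1169.6 and 1461 to 337, 552 and 638, a fall of 1.35 on the log2 scale (adjusted p = 0.00195 from limma). *fat-3*, the delta-6 desaturase, rose by 0.56 (adjusted p = 0.00622), and the other 12 of 14 desaturase and elongase genes were not called, among them *fat-5* at -0.78 (adjusted p = 0.0198) and *fat-6* at -0.14 (adjusted p = 0.556). Of 17 lipid binding protein genes, *far-7*, *lbp-5* and *lbp-7* rose by 2.32, 1.34 and 0.85, and *far-3* fell by 1.39.

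Some genes of the methionine cycle and phosphatidylcholine synthesis fell. *pmt-2*, a methyltransferase gene of phosphocholine synthesis, went from 9935, 10877 and 12056 to 5858, 6476 and 6333 (log2 -0.81, adjusted p = 0.00424 from limma). *ahcy-1*, encoding the enzyme that removes S-adenosylhomocysteine, went from 48373, 44627 and 48761 to 30679, 30796 and 27908 (log2 -0.67, adjusted p = 0.00159). *mel-32*, the serine hydroxymethyltransferase gene, and *sams-3*, an S-adenosylmethionine synthetase gene, fell by 0.73 and 0.60. In all 6 of 17 list members were lower and none higher (35.3% called, against 9.97% of all genes tested), with a median of -0.34. *sams-1* had a value of -0.44 (adjusted p = 0.0275). The count was 3, 2, 3 and 1 without *fbxl-5* replicate 2 or 3 or double mutant replicate 1 or 3. In *rict-1* against wild-type, 9 of the 17 were lower and 2 higher. Elsewhere in carbon metabolism, the trehalose synthase gene *tps-1* went from 525, 442 and 566 to 1346, 1287 and 1302 (log2 1.37, adjusted p = 1.47e-07), and *icl-1*, the glyoxylate cycle enzyme gene, fell by 0.62.

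Many genes of lysosomal and secreted hydrolases rose. The aspartyl protease genes *asp-6*, *asp-5* and *asp-1* were already abundant in *fbxl-5* mutants. *asp-6* went from 30294, 28606 and 30562 to 130727, 113458 and 112967, and *asp-5* from 6436, 6692 and 7210.2 to 38213, 30993 and 32739.9. These were rises of 3.99-fold (log2 1.99, adjusted p = 7.01e-05 from limma) and 5.01-fold (log2 2.32, adjusted p = 0.000239). *cpr-3*, a cathepsin B-like gene, rose by 2.00 and *asp-17* by 2.45. Of 21 cathepsin and aspartyl protease genes tested, 9 were higher and 1, *cpz-1*, was lower, with a median of 0.80. The share called was 47.6%, against 9.97% of all genes tested. Among 12 lysozyme genes, 6 were higher and 1, *ilys-5*, was lower (58.3% called), with a median of 1.21. The call of *ilys-5* was lost without double mutant replicate 1 or 3. *lys-1* went from 3400.1, 3816 and 3854 to 11492, 11167 and 10434, and *lys-7*, *lys-8* and *lys-10* rose by 1.78, 1.44 and 2.14. Counts of *lys-10* were low, at 0.803, 3.85 and 4.57 in *fbxl-5* mutants and 16.5, 13.7 and 15.2 in the double mutants. Without any 1 library, 8 of the protease genes and 5 or 6 of the lysozyme genes were called higher.

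These hydrolases are made largely by the intestine, and some markers of that tissue moved in the same direction. Of 8 intestinal markers, 3 were higher (*asp-1*, *vha-6* and *ifb-2*, with log2 fold changes of 1.56, 0.85 and 0.73) and none lower, and all 8 were detected. The share called was 37.5%, against 9.97% of all genes tested. The summed level of the 8 was between 82728 and 88619 in *fbxl-5* mutants and between 158920.4 and 173893 in the double mutants. *asp-1*, itself 1 of the hydrolases above, went from 40880, 37657 and 39529 to 123271, 113738 and 111953. It made up most of the rise in the sum. Without any 1 library, 1 of the 8 was called. The vitellogenins, which are also made in the intestine, fell or were not called. The part of intestinal content in the rises and falls of intestinal genes was not tested.

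**Figure D3:**
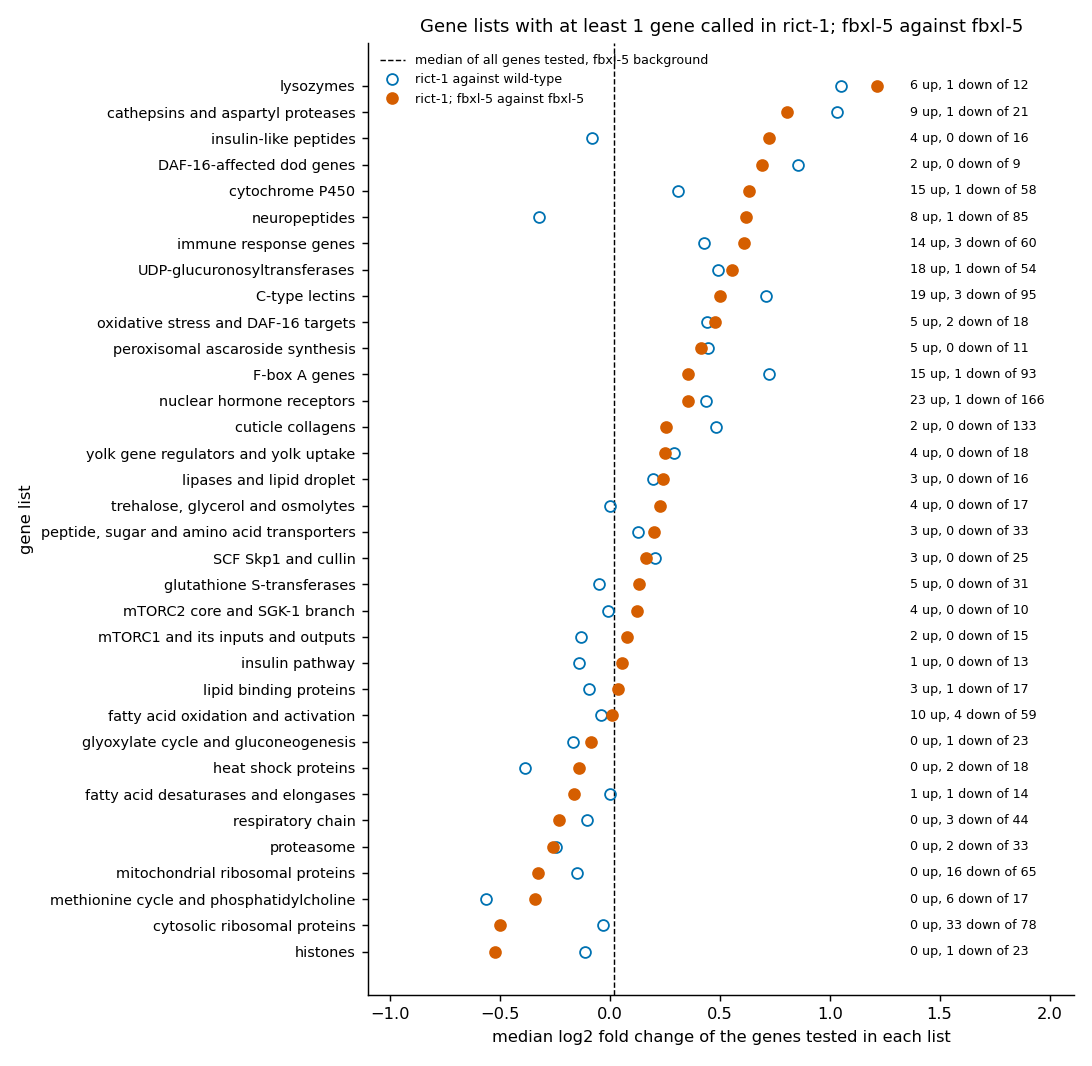
Median log2 fold change of each gene list with at least 9 genes tested and at least 1 call, leaving out tissue marker lists and lists drawn up after values had been seen, for *rict-1; fbxl-5* against *fbxl-5* (filled) and *rict-1* against wild-type (open), with the dashed line at the median of all genes (0.02). Numbers at the right count the genes called higher and lower in the double mutants, from lysozymes at the top (6 up, 1 down of 12) to the cytosolic ribosomal proteins near the bottom (0 up, 33 down of 78).

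Detoxification and immune families contributed many of the rises. The shares called were 35.2% (UDP-glucuronosyltransferases), 27.6% (cytochrome P450), 23.2% (C-type lectins) and 28.3% (immune response list), against 9.97% of all genes tested. Of 54 UDP-glucuronosyltransferase genes tested, 18 were higher and 1 lower, with a median of 0.55. *ugt-13* rose by 2.80 and *ugt-66* by 2.51. Of 58 cytochrome P450 genes, 15 were higher and 1 lower. *cyp-32B1* went from 8.03, 15.4 and 19.4 to 202, 188 and 176 (log2 3.71, adjusted p = 4.09e-07 from limma), and *cyp-37B1* and *cyp-35B1* rose by 4.28 and 3.29. The cytochrome P450 count was 9 without *fbxl-5* replicate 2 or double mutant replicate 3. Of 95 C-type lectin genes, 19 were higher and 3 lower. *clec-169* went from 109, 105 and 82.3 to 914, 962 and 822, and *clec-174* from 0.803, 0 and 0 to 28.9, 40.3 and 56.6. The saposin-like *spp-2* went from 197, 206 and 197 to 1937, 1881 and 1931, opposite in direction to *spp-17*. Among 60 genes of the immune response list, 14 were higher and 3 lower. That count of 14 was 9, 8, 9 and 8 without *fbxl-5* replicate 1 or 2 or double mutant replicate 2 or 3.

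Large regulatory families also held rises. Of 166 nuclear hormone receptor genes, 23 were higher and 1 lower (14.5%, against 9.97% of all genes tested), with *nhr-99* at 2.50 and *nhr-173* at 1.71. Their number was 13, 14 and 12 without *fbxl-5* replicates 1, 2 and 3, and 14, 15 and 11 without double mutant replicates 1, 2 and 3. Of 93 F-box A genes, 15 were higher and 1 lower (17.2%). The count of 15 was 9 and 8 without double mutant replicates 2 and 3, and 10 without *fbxl-5* replicate 2. *skr-5*, *skr-4* and *skr-3*, which encode Skp1-related adaptors of SCF ligases, rose by 3.10, 0.99 and 0.67. The other 22 Skp1, cullin and F-box adaptor genes tested were not called. The share called in this list, 3 of 25 genes, was close to the 9.97% of all genes tested. The insulin-like gene *ins-7* went from 15.3, 19.3 and 20.6 to 152, 113 and 123.2 (log2 2.75, adjusted p = 3.91e-05 from limma), and *ins-35*, *ins-22* and *ins-23* rose by 1.98, 1.77 and 1.54. No molting or heterochronic gene was called among the 19 and 14 tested. With 9.97% of all genes tested called, lists of this size would hold few calls in any case. Of 133 cuticle collagen genes, 2 were higher (1.5% called). That count was 5 without double mutant replicate 1 and 1 without *fbxl-5* replicate 1, 2 or 3 or double mutant replicate 3. It was 15 with DESeq2, and 17 were higher and 7 lower when only the 6 compared libraries were fitted.

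Ribosomal protein genes were lower by a small and even amount. Each of the 78 cytosolic ribosomal protein genes had a negative log2 fold change, between -0.61 and -0.05, with a median of -0.50, and 33 were called lower. The share called was 42.3%, against 9.97% of all genes tested. *rpl-11.1* went from 39856, 42071 and 41409 to 25443, 29812 and 25626 (log2 -0.61, adjusted p = 0.00337 from limma). The summed count of the 78 genes was 2493950, 2437170 and 2480747 in *fbxl-5* mutants, and it was 1733615, 1889558 and 1640742 in the double mutants. It was between 1708336 and 1781301 in wild-type and between 1709626 and 1742017 in *rict-1* single mutants. The *fbxl-5* libraries were thus the highest among the 4 genotypes, and the double mutant libraries overlapped those of wild-type and *rict-1*. In *rict-1* against wild-type, 0 of the 78 were lower and 1 was higher, but the difference between the 2 *rict-1* effects was called for none of them. The number called was sensitive to the libraries. It was 1, 0 and 0 without *fbxl-5* replicates 1, 2 and 3, 1, 27 and 0 without double mutant replicates 1, 2 and 3, and 76 when only the 6 compared libraries were fitted. The median stayed between -0.55 and -0.45 in those fits.

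Mitochondrial ribosomal protein genes were lower as well. All 65 were below 0 on the log2 scale, 16 were called lower (24.6%, against 9.97% of all genes tested), and the median was -0.33. *mrps-23* went from 582, 673 and 686 to 371, 396 and 409 (log2 -0.72, adjusted p = 0.000838 from limma). The number was 8, 9, 7 and 8 without *fbxl-5* replicate 2 or 3 or double mutant replicate 1 or 3. The mitochondrial chaperonin gene *hsp-60* fell by 0.76. The germ line is rich in ribosomes, and 2 of 8 germ line markers were lower, *glh-1* (log2 -0.98, from 13940.3, 13184 and 13654 to 7454, 6838 and 6365) and *fbf-2* (-0.63). Their summed level was between 63224 and 66656 in *fbxl-5* mutants and between 46191 and 55227 in the double mutants, and all 8 were detected. Without *fbxl-5* replicate 1 or 3 or double mutant replicate 1 or 3, 1 of the 8 was called. The part of germ line content in the ribosomal protein result was not tested. The 10 oocyte and eggshell markers were not called, and their sums overlapped, at 220141 to 255035 and 210849 to 245048.

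The same *rict-1* mutation was then read with *fbxl-5* intact. In *rict-1* against wild-type, which shares no library with the comparison above, 2215 genes were called (16.4%), with 1436 higher (10.7%) and 779 lower (5.78%). This count was 1400 and 1463 without wild-type replicate 1 and *rict-1* replicate 3. Which comparison had more calls depended on the fit. With only the 6 libraries of each comparison, 2571 genes were called in *rict-1* against wild-type and 3122 in the double mutants against *fbxl-5*. Of the 934 genes higher in the double mutants, 624 (66.8%) were also higher in *rict-1* against wild-type, and these made up 43.5% of its 1436. Of the 409 lower genes, 141 (34.5%) were also lower there, 18.1% of its 779. Only 18 genes were called in opposite directions, 16 higher and 2 lower in the double mutants. Across the 2215 genes, the log2 change in the *fbxl-5* background correlated with that in the intact background with a Pearson r of 0.69 and a slope of 0.45, which was between 0.44 and 0.46 for each double mutant library alone. Across the 1343 genes called in the double mutants, r was 0.78 and the slope 0.77. Genes are not independent replicates, and the changes of the comparison used to choose them may be inflated, so these are descriptions. In the first set 88.6% and in the second 91.5% of the genes had the same sign in both backgrounds.

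**Figure D4:**
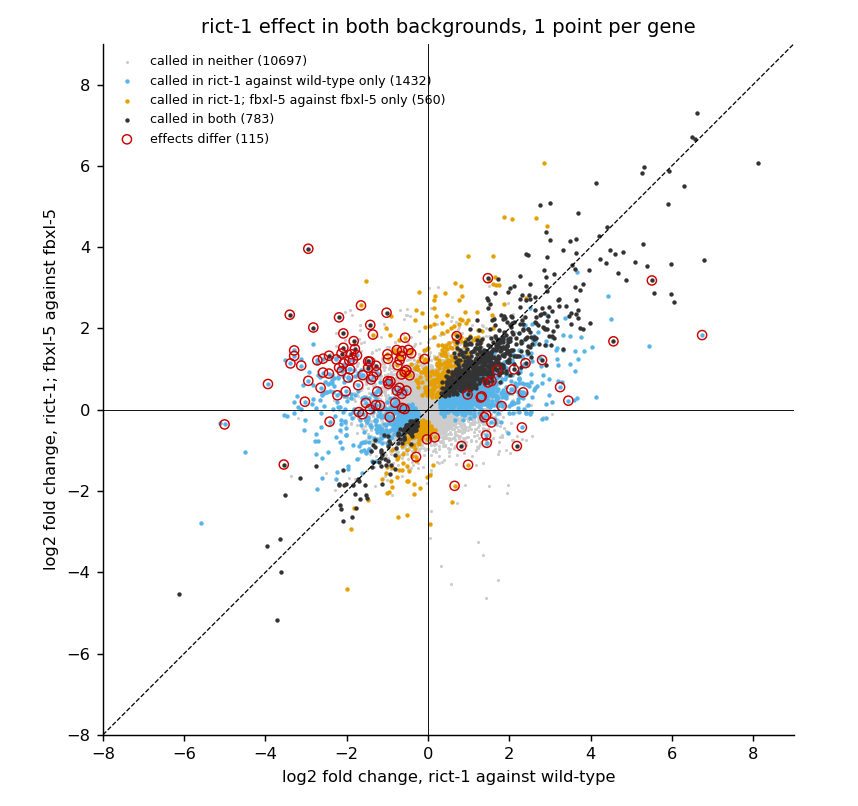
log2 fold change of *rict-1; fbxl-5* against *fbxl-5* (vertical) plotted over that of *rict-1* against wild-type (horizontal) for the 13472 genes, coloured by call, with the dashed line of equality. Most genes lie above 0 on both axes or below 0 on both (71.0% of all genes), and the 115 genes whose effects differ, ringed in red, are most numerous where the change was negative in the intact background.

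Among genes chosen by *rict-1* against wild-type, the lower ones were less repeated in the *fbxl-5* background than the higher ones. Over the 1436 genes higher in *rict-1* against wild-type, the slope was 0.68, and 95.9% had the same sign in the double mutants, with a median of 0.67 against 1.21. Over the 779 lower ones the slope was -0.01, and 75.2% had the same sign, with a median of -0.21 against -0.65. Choosing genes by the double mutants against *fbxl-5* did not give this order. The 409 lower genes then had a slope of 0.70 and 93.9% of the same sign, and the 934 higher genes 0.49 and 90.5%. A test of the difference between the 2 *rict-1* effects called 115 genes (0.854%), with 85 (0.631%) more positive and 30 (0.223%) more negative in the *fbxl-5* background. Of the 85, 49 were lower in *rict-1* alone and not called in the double mutants, 17 were higher in the double mutants only and 16 were called in opposite directions. The number of calls was 60 and 61 without wild-type replicates 2 and 3, 56 and 60 without *fbxl-5* replicates 1 and 2, and 73 and 55 without *rict-1* replicates 1 and 3. It was 76, 64 and 59 without double mutant replicates 1, 2 and 3.

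*B0024.4* had the largest of these differences. Its counts were 63.2, 65.6 and 59.1 in wild-type, 7.87, 6.23 and 7.75 in *rict-1*, 26.5, 41.4 and 17.1 in *fbxl-5* and 306, 596 and 435 in the double mutants, so that *rict-1* lowered it in one background and raised it in the other (difference 6.91, adjusted p = 5.6e-05 from limma). *lips-15*, a predicted lipase gene, went from 588, 631 and 769 to 215, 146 and 118 with *fbxl-5* intact, and from 113, 93.5 and 103 to 414, 277 and 481 without it. *far-8*, a fatty acid and retinol binding protein gene, fell from between 1188 and 1436 to between 152 and 247 with *fbxl-5* intact, whereas it was 157, 141.6 and 242 in *fbxl-5* and 410.4, 290.4 and 569.8 in the double mutants (log2 1.22, adjusted p = 0.0742). *srlf-30* fell from 248, 293 and 312 to 14, 9.34 and 3.44 in *rict-1* alone, and was 72.3, 58.8 and 56 in *fbxl-5* against 65.2, 43.6 and 38.8 in the double mutants. For these genes the *fbxl-5* single mutants already lay below wild-type in every library.

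In the other direction, *drd-50* rose from 57.3, 65.6 and 58.1 to 289, 222 and 335 in *rict-1* alone, but fell from 54.6, 53 and 61.7 to 33.9, 25.8 and 30.4 when *fbxl-5* was missing (difference -3.08, adjusted p = 3.98e-05 from limma). *tbb-6*, a beta-tubulin gene, rose from between 72.5 and 109.9 to between 387 and 524 in *rict-1* alone. It was 133, 109.8 and 123.4 in *fbxl-5* and 96.6, 71 and 105 in the double mutants, a log2 change of -0.44 (adjusted p = 0.251). *Y41C4A.32* and *Y51H7C.1* fell by 1.87 and 1.36 in the *fbxl-5* background, and their values in the intact background were 0.65 (adjusted p = 0.0938) and 0.99 (adjusted p = 0.0105). The differences for *far-8*, *Y41C4A.32* and *Y51H7C.1* missed the threshold without some of the libraries, with adjusted p-values of 0.0116 to 0.015, 0.0103 to 0.0108 and 0.0105 to 0.0108.

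**Figure D5:**
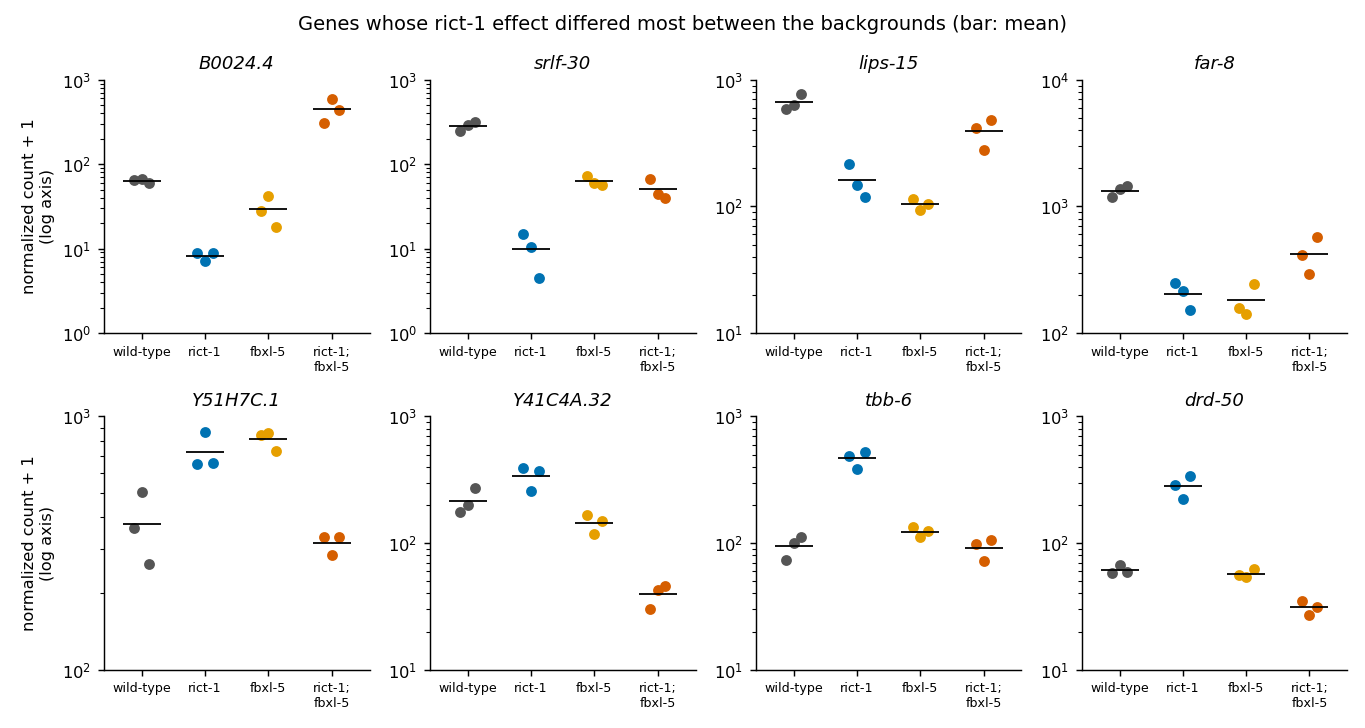
Normalized count plus 1 (log axes, each panel on its own scale) of the 4 genes with the largest positive and the 4 with the largest negative difference between the *rict-1* effects among called genes with a mean of at least 100, with 3 libraries per genotype and bars at the means. *B0024.4* was between 6.23 and 7.87 in *rict-1* and between 306 and 596 in *rict-1; fbxl-5*, and *drd-50* was between 222 and 335 in *rict-1* and between 25.8 and 33.9 in *rict-1; fbxl-5*.

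Most neuropeptide genes had small positive values in the *fbxl-5* background, but the share called, 10.6%, was close to the 9.97% of all genes tested. Of 85 tested, 8 were higher and 1, *flp-6*, was lower, with a median of 0.62, while in *rict-1* against wild-type 6 were higher and 7 lower, with a median of -0.32. The difference between the effects was called for 6 of them, all positive. *flp-14* was 213, 227 and 293 in wild-type, 78.7, 67.7 and 61.1 in *rict-1*, 45, 33.7 and 58.3 in *fbxl-5* and 114, 111 and 163 in the double mutants (difference 3.29, adjusted p = 0.0022 from limma). *nlp-6* rose from 48.2, 42.4 and 61.7 to 135, 126 and 138. The count of 8 was 2, 3 and 3 without *fbxl-5* replicates 1, 2 and 3, and 5, 1 and 1 without double mutant replicates 1, 2 and 3. It was 27 with only the 6 compared libraries, 24 with the 12 libraries of the 4 genotypes and 15 with DESeq2. Of 8 neuronal markers, *egl-3*, a propeptide-cleaving enzyme gene, and *unc-64*, the syntaxin gene, rose by 0.82 and 0.58, and none was lower. Their summed level was between 4068 and 4602 in *fbxl-5* and between 4839.8 and 5189 in the double mutants, and all 8 were detected. Without *fbxl-5* replicate 1, 2 or 3, 0, 1 and 2 of them were called, and 1 without any double mutant replicate. The part of neuronal content in this result was not tested. Among 9 genes of neuropeptide processing, a list drawn up after values had been seen, 4 were higher (44.4%), among them *sbt-1* (0.87) and *ida-1* (0.74). Between 0 and 3 of the 9 were higher without 1 library.

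Calls were spread over all 6 nuclear chromosomes, and none of 14 mitochondrial genes was called. On chromosome II, which carries *rict-1*, 8.61% of 2368 tested genes were called, and on chromosome V, which carries *fbxl-5* in both groups, 13.6% of 2582 were. The shares on I, III, IV and X were 7.51%, 8.71%, 11.2% and 9.84%. Rises made up 275 of the 350 calls on V and 79 of the 164 calls on I. On X, 165 of 192 calls were rises. Body wall muscle, hypodermis, pharynx, early embryo and sperm markers were not called in any of the 8, 8, 8, 9 and 10 genes tested.

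Not every call of a gene named above held without each library. *acox-1.5*, *flp-14*, *hrg-2*, *hrg-7*, *ifb-2* and *vha-6* lost theirs without any 1 of the 6 libraries, with adjusted p-values from limma of at most 0.0468. *akt-2*, *ceh-60*, *egl-3*, *fat-3*, *icl-1*, *ins-23*, *lys-7*, *pmt-2*, *rpl-11.1*, *skr-3* and *unc-62* did so without 5 of the 6, with values of at most 0.0475, and *asp-17* and *fbf-2* without 4. *fat-7* had 0.0122 without *fbxl-5* replicate 3 and 0.0111 without double mutant replicate 1, and *sams-3* 0.0137 and 0.017 without *fbxl-5* replicate 3 and double mutant replicate 3. *ahcy-1* and *lbp-7* lost their calls without double mutant replicate 3 (0.012 and 0.0115), and *unc-64* without *fbxl-5* replicate 1 (0.0123). The calls of *vit-1*, *vit-3*, *vit-4*, *spp-17*, *acs-2*, *pqm-1*, *sgk-1*, *ugt-18*, *ech-9*, *hrg-3* and *F56C3.9* held without each library in turn.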

How the data were processed

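mRNA-Seq libraries (TruSeq v2, single-end 50-base reads) came from 6 genotypes, 3 libraries each; groups and replicate numbers were taken from the labels, and 0 columns were left out. The authors aligned reads to WS260, and the submitters' processing notes name STAR, Subread, featureCounts and DESeq2 without versions. They deposited counts divided by DESeq2 size factors, a signal that is not raw counts. Of these values 100% were whole multiples of 1 read (tolerance 0.001 reads), so reads were recovered for count-based alternatives. Tables of the authors' own comparisons (fold changes, p-values) were not used.

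log2(value + 1) of the 13472 genes was fitted with limma 3.58.1 in R 4.3.3 (trend, robust), without covariates, at 1% FDR. edgeR 4.0.16 and DESeq2 1.42.0 were alternatives, beside other pseudocounts, filters, scalings, library sets, a replicate block and leaving out libraries. Functions were tested on simulated data. Symbols matched 96.99% of the genes, and positions are from WBcel235.

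Named genes were *rict-1*, *fbxl-5*, the vitellogenins, the 10 largest rises and falls (mean of at least 100, no overlap), up to 4 called members per list, and the 4 largest differences between effects in each direction (mean of at least 100). Other members named beside them were chosen after their values were seen. Members and lists were chosen with earlier results of these data known. At the filter of 10 a gene has few reads per library, so its counting error is wide.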

Additional observations from a re-analysis of the deposited data

Results flagged for a closer look

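For 15 named genes the *rict-1* effect differed between the backgrounds in limma at 1% FDR, tested as the log2 effect in *fbxl-5* mutants minus that in wild-type. It was more positive without *fbxl-5* for *B0024.4* (6.91), *srlf-30* (4.64), *ugt-8* (4.46), *lips-15* (3.96), *far-8* (3.94), *flp-14* (3.29), *ins-22* (2.34), *fat-7* (2.20), *nlp-6* (1.80) and *lbp-7* (1.3). It was more negative for *drd-50* (-3.08), *tbb-6* (-2.75), *Y41C4A.32* (-2.53), *Y51H7C.1* (-2.34) and *clec-169* (-2.33). *fat-7* fell in both backgrounds, from 2188, 3345 and 2768 to 144, 325 and 266 with *fbxl-5* intact and by the smaller amount given above without it. *clec-169* rose in both, from 21.1, 32.8 and 25.4 to 1202, 1226 and 1261 with *fbxl-5* intact.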

How the results depend on the processing

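No alternative reversed the direction of a called gene that the text names. Of the 134 named genes called in the double mutants, between 117 and 134 kept their call under the settings that used every replicate (17 were not tested at a minimum of 50), and between 96 and 112 did so without a replicate. The number of called genes moved, and the cause was not tested. In place of 1343, it was 3122 with only the 6 libraries compared, 2490 with the 12 libraries of the 4 genotypes, 2061 with DESeq2 and 2669 at an FDR of 0.05. The share of calls that were rises was 56.3%, not 69.5%, in the 6-library fit, in which *rict-1* against wild-type had 2571. For *rict-1* against wild-type, 3579 (12 libraries) and 3980 (FDR of 0.05) stood in place of 2215, and for the difference of effects 819 (12 libraries), 458 (DESeq2) and 495 (FDR of 0.05) in place of 115. Leaving out a replicate gave 729 to 988, 1400 to 1851 and 55 to 89 genes in the 3 comparisons. The slope of 0.45 was 0.43 without a filter, 0.51 at a minimum of 50, 0.40 with 6 libraries, 0.42 with 12, 0.44 with DESeq2 or edgeR, and 0.43 to 0.49 without a replicate. The deviations of same-numbered *fbxl-5* and double mutant libraries had correlations of 0.08, 0.10 and -0.05. Those of wild-type and *rict-1* libraries had 0.07, 0.27 and -0.22. The numbers were not taken as pairs in the main fit. With a replicate block, 1575 genes were called in the 18-library fit, and 4105 (double mutants) and 3609 (*rict-1* against wild-type) in 6-library fits, where 46.7% of the former were rises. Under the block the slope was 0.47 and 0.41. The 3 falling vitellogenins were called under every setting. DESeq2 gave no adjusted p for *hrg-2* and *ugt-18*. The alternatives for the lists were chosen after seeing the data. Depth limits statements on genes with few reads in *fbxl-5* mutants.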

Other observations

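Tetraspanin and small secreted *spig* genes were among those that *rict-1* moved in opposite directions, and a list of them was drawn up after their values had been seen. *tsp-1*, a tetraspanin gene, was at 49.1, 62.1 and 42.7 in wild-type and 25.4, 24.9 and 23.3 in *rict-1*, but at 19.3, 17.3 and 24.0 in *fbxl-5* and 118.9, 102 and 107 in the double mutants. *spig-9* was at 552, 645 and 754 in wild-type, 166, 189.9 and 165 in *rict-1*, 110.0, 88.6 and 147 in *fbxl-5* and 240.3, 257 and 405 in the double mutants. In limma the difference between the *rict-1* effects was 3.41 for *tsp-1* (adjusted p = 2.36e-05) and 3.25 for *spig-9* (adjusted p = 0.000196). Of the 18 list members tested, 5 were higher in the double mutants against *fbxl-5* and none lower (27.8%, against 9.97% of all genes tested). The difference between the effects was called for 5 of them. The count of higher genes was 3 without *fbxl-5* replicate 2 or double mutant replicate 3.

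Protein quality control genes were called at 11.1% (heat shock) and 6.06% (proteasome), against 9.97% of all genes tested. Among 18 heat shock protein genes 2 were lower, *hsp-60* and *hsp-43*, which went from 2442, 2505 and 2768 to 1135, 1146 and 1313 (log2 -1.1, adjusted p = 0.000885 from limma). All 33 proteasome genes had negative values with a median of -0.26, and 2 were called lower with all libraries, 1 without double mutant replicate 2 and 0 without any other of the 6. With only the 6 compared libraries fitted, 20 proteasome and 8 heat shock genes were lower. None of the 22 major sperm protein genes was called, and all 22 had positive values, with a median of 0.81. Their summed counts were low and overlapped, at 337, 464 and 321 in *fbxl-5* and 613, 415 and 1047 in the double mutants. Of 31 glutathione S-transferase genes, 5 were higher (16.1% called), and 3 were without *fbxl-5* replicate 1 or 2 or any double mutant replicate.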
